A study of Mus musculus with 11 samples.

Results

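The genes described here are 7 genes known from microfold (M) cells and the follicle-associated epithelium of the gut, of 45777 genes listed for each library. They are *Gp2*, *Spib*, *Sox8*, *Tnfaip2*, *Tnfrsf11a*, *Tnfrsf11b* and *Marcksl1*, taken by gene symbol, and all 7 had counts. They were chosen by values already seen in these data, the response of the small intestine to imiquimod (IMQ). Their small intestine values are therefore a description without a test, and the skin libraries were compared with a test.

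RNA was extracted from skin and small intestine of BALB/c mice without an engineered allele and sequenced in bulk. The mice were 8 to 10 weeks old. Control mice received vehicle cream (Vaseline) and IMQ-treated mice received 62.5 mg per day of a cream containing 5% IMQ, which activates the endosomal receptor TLR7, on the shaved back and right ear. The sample labels give 5 to 8 days of treatment and the methods a shorter span, and the days of each mouse were not given. There were 3 control libraries (replicates 1, 2 and 3) and 3 IMQ libraries (4, 5 and 6) of skin, and 3 control libraries (7, 8 and 9) and 2 IMQ libraries (10 and 11) of small intestine. Nothing stated that each library came from a separate mouse or which tissues shared a mouse, so the spread between libraries may be partly technical. The total count per library was 44995414 to 58526384. The segment of small intestine and whether Peyer's patches were removed before RNA extraction were not stated.

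M cells are epithelial cells over Peyer's patches and other lymphoid follicles that carry particles and bacteria from the lumen to the immune cells beneath. Stromal cells under the follicle-associated epithelium make RANKL (*Tnfsf11*), which binds its receptor RANK on epithelial cells, signals through TRAF6 and NF-κB, and turns on the transcription factors Spi-B and Sox8. Late in this program the cells display glycoprotein 2 (*Gp2*), a receptor for bacteria that carry the fimbrial adhesin FimH. Osteoprotegerin (*Tnfrsf11b*) is a soluble decoy that binds RANKL and restrains the program.

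*Gp2* lies on chromosome 7 at 119442537 to 119459272 (GRCm38), *Spib* on chromosome 7 at 44525995 to 44532087 and *Sox8* on chromosome 17 at 25565893 to 25570686. *Tnfaip2* lies on chromosome 12 at 111442450 to 111455018 and *Tnfrsf11a* on chromosome 1 at 105780673 to 105849444. *Tnfrsf11b* lies on chromosome 15 at 54250619 to 54278484 and *Marcksl1* on chromosome 4 at 129513581 to 129515981. RefSeq (GRCm38.p6) promoters were at hand for 6 of 7 genes. The 250 bases before the transcript start are shown for *Gp2*, the gene with the widest gap between the groups of small intestine, at chr7:119459273-119459522 on the minus strand, and for *Spib*, a transcription factor of the same program that did not show such a gap, at chr7:44532072-44532321 on the minus strand. The windows follow the transcript start in the promoter table, which for *Spib*, *Tnfrsf11a* and *Tnfaip2* lies inside the gene span given above. The letters TATANA are in capitals.
Gp2: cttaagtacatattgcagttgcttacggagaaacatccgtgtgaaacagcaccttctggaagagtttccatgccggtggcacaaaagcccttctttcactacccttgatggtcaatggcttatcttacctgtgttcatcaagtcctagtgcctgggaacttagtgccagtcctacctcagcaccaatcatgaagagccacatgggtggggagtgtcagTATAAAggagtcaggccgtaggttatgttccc
Spib: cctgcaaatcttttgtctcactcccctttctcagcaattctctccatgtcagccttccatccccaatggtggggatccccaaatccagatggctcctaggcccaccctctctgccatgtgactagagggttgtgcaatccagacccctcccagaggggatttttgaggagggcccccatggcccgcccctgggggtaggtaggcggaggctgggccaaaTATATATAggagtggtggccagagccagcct
TATANA was found on either strand in 22.6% of 32851 promoter windows of the same length. In *Gp2* it lay 32 to 27 bases before the start, in *Spib* at 31 to 26 and, overlapping, at 29 to 24 bases before the start, and it was not in the windows of the other 4 genes. GAGGAA, a core that ETS factors such as Spi-B can bind, was in 23.3% of all windows and among these genes in that of *Marcksl1* alone, at 62 to 57 bases before the start. The decamer motif of NF-κB was in 1.21% of all windows, and ACAAT, bound by SOX factors, in 27.7%. Neither was in the 6 windows of these genes. The motifs were picked with the sequences in view, and a match or its absence describes these letters only.

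Of the libraries, 2 stood apart in ways that touch these genes. Control replicate 9 of small intestine had the highest level for 14 of 19 B cell follicle genes. *Ms4a1* (CD20) was 10.8-fold higher in it than the mean of replicates 7 and 8, *Cr2* (complement receptor 2, on B cells and follicular dendritic cells) 9.90-fold and *Pax5* 20.8-fold. Control replicate 2 of skin had 929 counts of *Vil1*, an intestinal brush border gene with 0 to 23 counts in the other skin libraries, and 8 counts of the hair follicle keratin *Krt25*, against 19233 and 34381 in the other control skin libraries and 0 to 7 in the IMQ skin libraries. Log2 fold changes of *Spib* and *Marcksl1* in small intestine and of *Tnfrsf11a*, *Tnfrsf11b* and *Marcksl1* in skin are also given without the library concerned. Group means and list medians include all libraries.

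In the small intestine of control mice, the level per transcript length (FPKM) was 7.85 ± 0.399 (SD, n = 3) for *Tnfrsf11a*, which encodes RANK, and 7.34 ± 2.49 for *Marcksl1*, a MARCKS-like protein of the actin cytoskeleton. The ranges of these genes overlapped. *Tnfaip2*, a TNF-induced gene whose product forms membrane nanotubes and is high in M cells, followed at 4.10 ± 0.315 FPKM. Below it came *Spib* at 1.70 ± 0.675 and *Tnfrsf11b* at 1.37 ± 0.233 FPKM, whose ranges overlapped. *Gp2* came next at 0.918 ± 0.152 FPKM, and *Sox8* was lowest at 0.0523 ± 0.0249 FPKM. In IMQ-treated mice *Gp2* had 0.0347 and 0.0999 FPKM and no longer stood above *Sox8*, which had 0.0239 and 0.102 FPKM.

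Most of these genes were not confined to the gut, and 6 of 7 had counts in every skin library. In control skin, *Tnfaip2* had 12.1 ± 1.39 FPKM (n = 3), *Marcksl1* 53.2 ± 32.6, *Tnfrsf11b* 2.56 ± 1.58 and *Sox8* 0.222 ± 0.0869 FPKM, with each library above all control small intestine libraries. For *Tnfrsf11b* these tissues nearly met, at 1.646 FPKM in the lowest control skin and 1.64 in the highest control small intestine library. Its skin mean includes the atypical control replicate 2, the highest at 4.38 FPKM. *Tnfrsf11a* at 2.18 ± 0.653 FPKM and *Spib* at 0.302 ± 0.0606 FPKM were below all control small intestine libraries. *Gp2* had a count of 0 in all 6 skin libraries, where 3 counts, the upper limit that a count of 0 allows, equal 0.0572 to 0.0667 CPM (counts scaled to library size). The control small intestine library with the lowest *Gp2* level was at least 27.7-fold higher than the highest of these limits, which cover counting error only. *Gp2* was the only one of the 7 genes without a count in skin.

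The largest gap between control and IMQ-treated mice in the small intestine was that of *Gp2*. After normalization for library size, control replicates 7, 8 and 9 had 127, 89.7 and 99.7 *Gp2* counts, and IMQ replicates 10 and 11 had 11.8 and 4.44. As deposited, these were 117, 89 and 108 counts against 13 and 4. Both IMQ libraries were far below every control library, and the control libraries lay close together. The means were 106 ± 19.2 (SD, n = 3) and 8.12 ± 5.21 (n = 2), a log2 fold change of -3.64 (SE 0.473), or 12.5-fold lower. Without any single library it was -4.52 to -3.15. *Gp2* was not raised in control replicate 9 (0.921 of the mean of 7 and 8), the library with the B cell follicle genes, and the log2 fold change without it was -3.69. In bulk RNA, fewer cells of a type and less RNA per cell cannot be told apart.

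**Figure D1:**
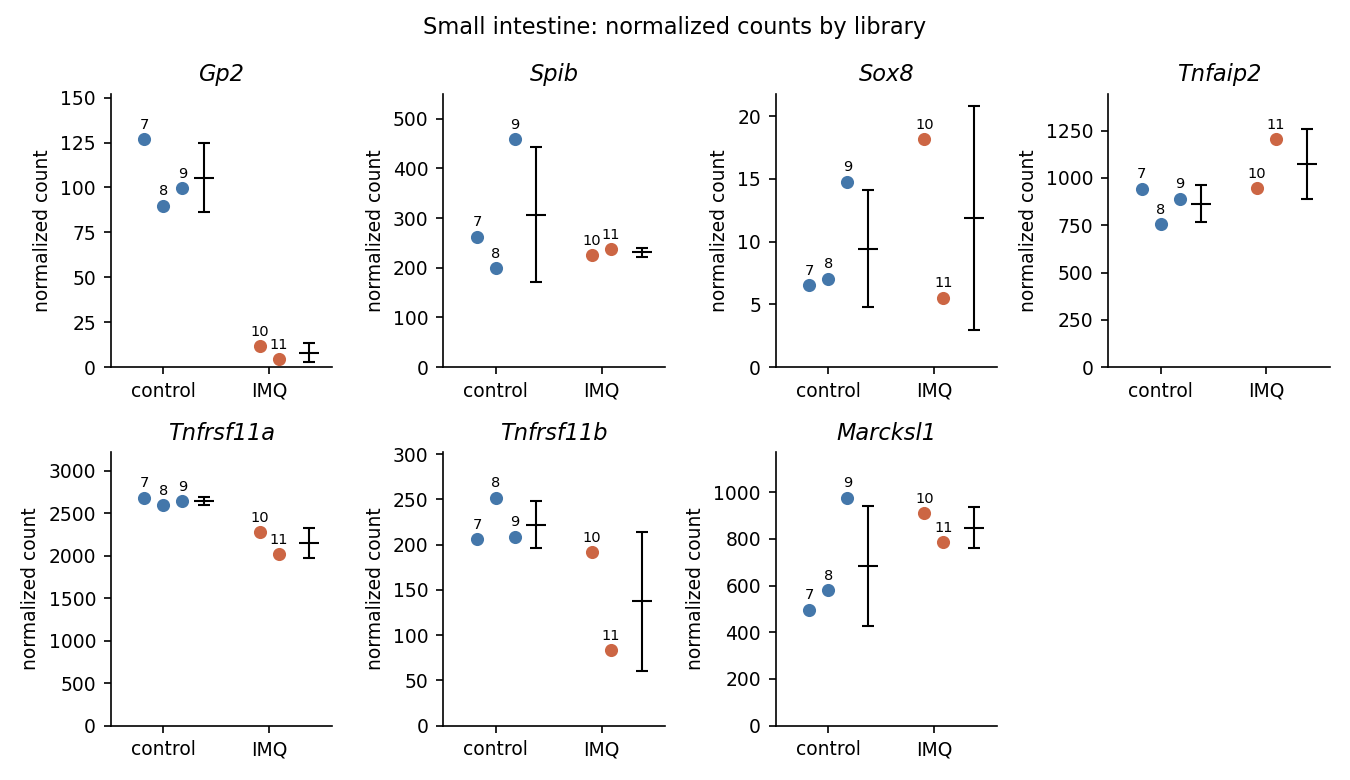
Normalized counts (vertical axes) of the 7 genes in the small intestine libraries, with control (blue) and IMQ (red) libraries marked by replicate number and the bars giving mean and SD. *Gp2* has 89.7 to 127 normalized counts in the control libraries and 4.44 and 11.8 in the IMQ libraries, whereas *Spib*, *Sox8* and *Marcksl1* overlap between the groups.

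*Gp2* is also a gene of pancreatic acinar cells, where its product coats the zymogen granule. The summed counts of 12 acinar genes, a list added after the *Gp2* values were seen, were 33, 17 and 28 in the control and 36 and 14 in the IMQ libraries of small intestine. Of the 12 genes, 8 to 10 were at 0 in each library. The 9 general epithelial genes, which include *Epcam* and *Vil1*, summed to 3602, 3748 and 4642 FPKM in control and 3302 and 3398 FPKM in IMQ libraries. By edgeR, 0 of 9 were called (3 at an unadjusted p under 0.05, which 12.3% of all genes tested reached). Both IMQ libraries were below all control libraries for 4 of 9 and above them for 1, against 13.9% and 15.1% of all genes tested. The median log2 fold change of the 9 was -0.222, against -0.0217 over all genes. Genes of the proximal small intestine summed to 1324 to 3851 FPKM in control and 5244 and 6587 FPKM in IMQ libraries, a sum made up mostly of *Fabp1*, without which it was 38.2 to 41.5 and 36.6 and 40.9 FPKM. Of the 4 proximal genes 0 were called by edgeR, and their median log2 fold change was 0.0817. DESeq2 called *Fabp1* higher (log2 fold change 1.31, adjusted p = 0.0288). Genes of the distal small intestine summed to 1.72 to 2.83 FPKM in control and 0.547 and 1.79 FPKM in IMQ libraries. In control skin the same sum was 0.652 to 1.81 FPKM, which overlaps these values. The part of the sampled segment in the *Gp2* difference was not tested.

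Of the transcription factors, neither separated the groups as *Gp2* did. *Spib*, which encodes Spi-B and is also expressed in B cells and plasmacytoid dendritic cells, had 263, 199.6 and 459 normalized counts in control replicates 7, 8 and 9 and 225 and 237 in IMQ replicates 10 and 11. The IMQ libraries lay within the control range, and control replicate 9 was highest. The log2 fold change was -0.41 (SE 0.361), and without replicate 9 it was -0.0015 (SE 0.273). *Spib* was 1.99-fold higher in replicate 9 than in 7 and 8, together with the B cell genes, whose part in it was not tested. *Sox8*, which is needed for *Gp2* expression in M cells, had 6.51, 7.06 and 14.8 normalized counts in control and 18.2 and 5.54 in IMQ libraries. At these counts no difference was detectable, since the log2 fold change of 0.34 (SE 0.586) became -0.77 when IMQ replicate 10 was left out and 0.92 when replicate 11 was.

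**Figure D2:**
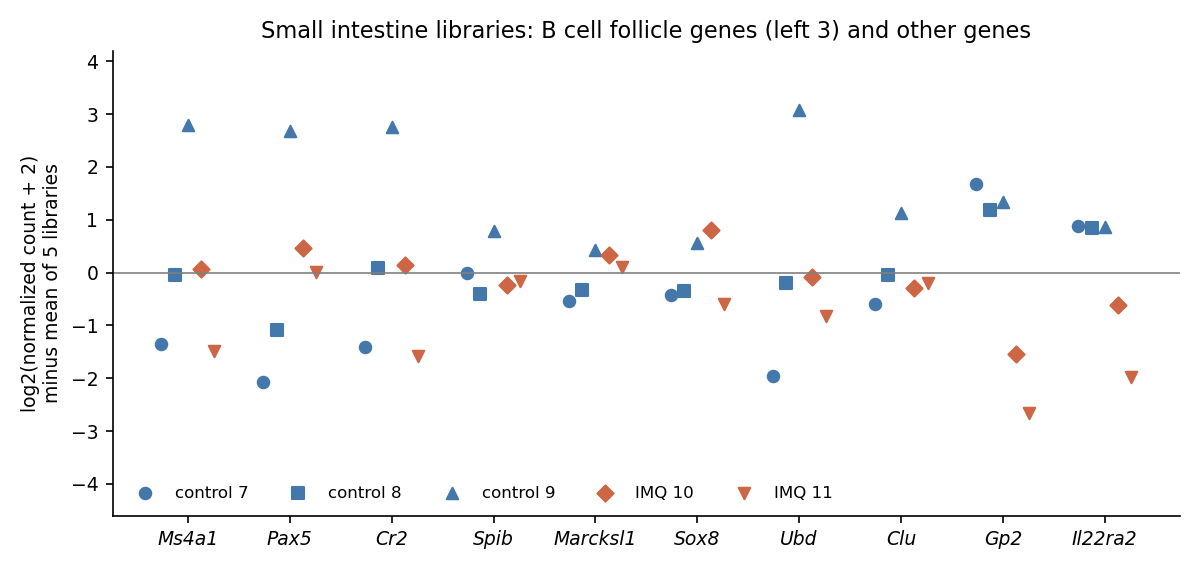
Level of each gene in each small intestine library, as log2(normalized count + 2) minus the mean of the 5 libraries (vertical axis), for B cell follicle genes and for genes of M cells and the follicle. Control replicate 9 (triangle) is highest for *Ms4a1*, *Pax5*, *Cr2*, *Spib*, *Ubd* and *Clu*, whereas all 3 control libraries are above both IMQ libraries for *Gp2* and *Il22ra2*.

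Both receptors for RANKL were lower in the IMQ libraries. *Tnfrsf11a* (RANK) had 2683, 2593 and 2642 normalized counts in control and 2275 and 2020 in IMQ libraries. The groups did not overlap, but the gap was small, with means of 2639 ± 44.8 (n = 3) and 2148 ± 180 (n = 2) and a log2 fold change of -0.30 (SE 0.117). Without any single library it was -0.38 to -0.22. *Tnfrsf11b* (osteoprotegerin) had 206, 252 and 209 normalized counts in control and 192 and 83.2 in IMQ libraries. Replicate 11 was far lower than replicate 10, which was close to the control libraries. The means were 222 ± 25.8 (n = 3) and 137 ± 76.6 (n = 2), and the log2 fold change of -0.69 (SE 0.370) became -1.41 when IMQ replicate 10 was left out and -0.22 when replicate 11 was.

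The ligand itself was scarce. *Tnfsf11* (RANKL) had 11, 22 and 34 counts in control and 16 and 7 in IMQ small intestine libraries. The ranges overlapped, and its log2 fold change of -0.95 (SE 0.512, adjusted p = 0.547, edgeR's quasi-likelihood test) did not pass the threshold of 0.05. Per transcript length, decoy RNA exceeded ligand RNA in every small intestine library, with a *Tnfrsf11b* to *Tnfsf11* FPKM ratio of 14.0, 9.23 and 5.42 in control and 10.7 and 8.66 in IMQ libraries. The *Tnfrsf11a* to *Tnfrsf11b* FPKM ratio was 6.68, 4.65 and 6.20 in control and 5.51 and 11.5 in IMQ libraries. Neither ratio separated the groups.

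The remaining genes had slightly higher means in the IMQ libraries. *Tnfaip2* had 944, 755 and 891 normalized counts in control and 945 and 1205 in IMQ libraries. The groups did not overlap, although replicates 7 and 10 were nearly equal, and the means were 863 ± 97.3 (n = 3) and 1075 ± 184 (n = 2). The log2 fold change was 0.32 (SE 0.173), and 0.13 without IMQ replicate 11. *Marcksl1* had 497, 580 and 977 normalized counts in control and 911 and 786 in IMQ libraries. The groups overlapped through control replicate 9, which was 1.82-fold higher than the mean of 7 and 8. The log2 fold change of 0.31 (SE 0.290) was 0.65 (SE 0.195) without it.

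Of the 7 genes in the small intestine, 3 had both IMQ libraries below all control libraries (*Gp2*, *Tnfrsf11a* and *Tnfrsf11b*), and 1 had them above (*Tnfaip2*). Of all 19965 genes tested, 13.9% were below and 15.1% above in this way. The median log2 fold change of the 7 genes was -0.297, against -0.0217 over all genes tested. The genes did not share a single pattern, and the largest gap was that of *Gp2*, the gene of mature M cells.

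The genes nearest to each of these genes over the 5 small intestine libraries are listed here as a description. Among 15058 genes whose mean normalized count reached 50, *Timd4* and *Apol7c* had the log2 CPM closest to that of *Gp2* after centring. Their root mean square distances were 0.164 and 0.377. *Timd4*, which encodes the phosphatidylserine receptor TIM-4 of resident macrophages, had 331, 193 and 254 normalized counts in control and 35.4 and 11.1 in IMQ libraries. *Apol7c*, an apolipoprotein L gene, had 866, 445 and 555 normalized counts in control and 90.8 and 65.4 in IMQ libraries. Both had all control libraries far above the IMQ libraries, and they were selected for this likeness, so no test is given. Of the candidates, 0.00664% came within a distance of 0.25 of *Gp2*, against 0.930% for *Tnfrsf11b*, 1.30% for *Spib*, 2.28% for *Marcksl1*, 37.4% for *Tnfaip2* and 51.4% for *Tnfrsf11a*. The closest were *Pacsin1* and *Ddo* to *Tnfrsf11b* (0.034 and 0.0931), *Cdc25c* and *Gbp11* to *Spib* (0.109 and 0.119), and *Tnfaip8l2* and *Ifit1bl2* to *Marcksl1* (0.0132 and 0.067). Genes as flat as *Tnfaip2* and *Tnfrsf11a* were common, with *Trappc1* and *Furin* closest to *Tnfaip2* (0.0118 and 0.0243) and *Rps16-ps2* and *Calm2* closest to *Tnfrsf11a* (0.0154 and 0.0264).

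The expression of *Tnfaip2* was increased in the skin of IMQ-treated mice. Control replicates 1, 2 and 3 had 2015, 2555 and 2441 normalized counts of *Tnfaip2*, and IMQ replicates 4, 5 and 6 had 5664, 6037 and 7426. All IMQ libraries were well above all control libraries, with means of 2337 ± 285 and 6376 ± 928 (SD, n = 3 each). *Tnfaip2* rose by 1.45 on the log2 scale (SE 0.152, adjusted p = 0.00499, edgeR's quasi-likelihood test), or 2.73-fold. It passed without each library in turn, with an adjusted p of 0.00723 to 0.0284, the lowest of which was without the atypical control replicate 2. Of 6 of these genes that had a count in every skin library, 1 was called, against 6.74% of 20512 genes tested (4.05% higher and 2.69% lower).

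The other skin genes did not pass the test. *Sox8*, which outside the gut serves neural crest and testis development, had 29.0, 27.3 and 50.6 normalized counts in control and 18.6, 17.5 and 23.3 in IMQ skin. The groups did not overlap, as for 13.3% of all genes tested in this direction, but the log2 fold change of -0.85 (SE 0.329) had an adjusted p of 0.185 by edgeR. *Spib* had 68.8, 55.6 and 46.2 normalized counts in control and 59.0, 79.2 and 94.4 in IMQ skin, with a log2 fold change of 0.45 (SE 0.282, adjusted p = 0.399, edgeR).

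The RANKL receptors and *Marcksl1* varied widely among control skin libraries. *Tnfrsf11a* had 714, 928 and 413 normalized counts in control and 851, 919 and 980 in IMQ skin (adjusted p = 0.423, edgeR). *Tnfrsf11b* had 244, 694 and 240 in control and 210, 437 and 495 in IMQ skin (adjusted p = 0.973, edgeR). Control replicate 2 was the highest of the control libraries for both genes. *Marcksl1* had 4348, 1909 and 7140 normalized counts in control and 2813, 2608 and 3557 in IMQ skin (adjusted p = 0.472, edgeR), and here replicate 2 was lowest. Without replicate 2 the log2 fold changes went from 0.42 to 0.70 for *Tnfrsf11a*, from -0.04 to 0.66 for *Tnfrsf11b* and from -0.58 to -0.94 for *Marcksl1*, with adjusted p values of 0.127, 0.315 and 0.0604 by edgeR.

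**Figure D3:**
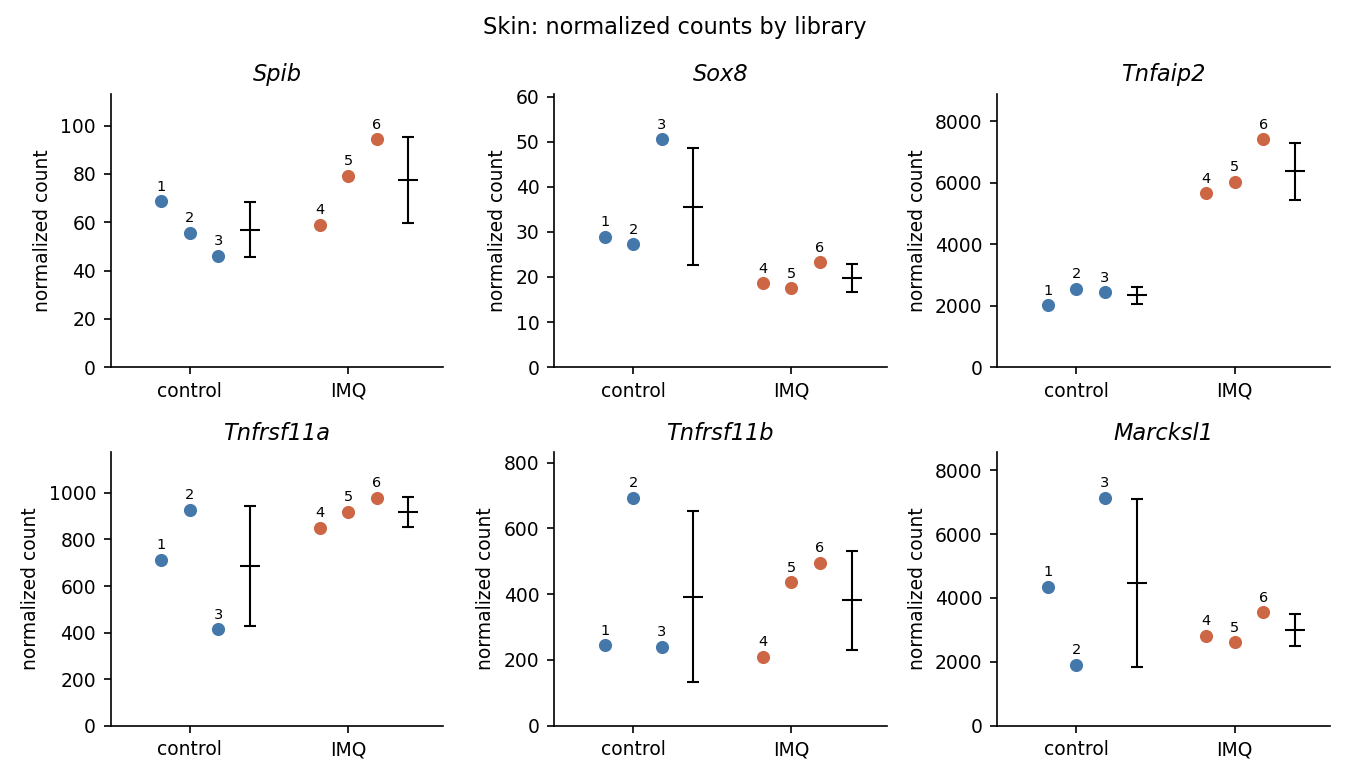
Normalized counts (vertical axes) in the skin libraries for the 6 genes with counts there, with control (blue) and IMQ (red) libraries marked by replicate number and bars for mean and SD. *Tnfaip2* has 2015 to 2555 normalized counts in control and 5664 to 7426 in IMQ skin, and control replicate 2 is the highest control library for *Tnfrsf11b* and the lowest for *Marcksl1*.

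The responses of the tissues are set side by side here. The log2 fold change in the small intestine minus that in the skin was -1.12 (SE 0.243) for *Tnfaip2*, -0.85 (SE 0.479) for *Spib*, -0.71 (SE 0.352) for *Tnfrsf11a* and -0.63 (SE 0.721) for *Tnfrsf11b*. For *Sox8* it was 1.19 (SE 0.666) and for *Marcksl1* 0.88 (SE 0.578). Over all genes 2.55% were called for such a difference, 0.856% with the lower response in small intestine. These differences contain the small intestine contrast by which the genes were chosen and carry no test. *Gp2*, at 0 in all skin libraries, had no fold change there.

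**Figure D4:**
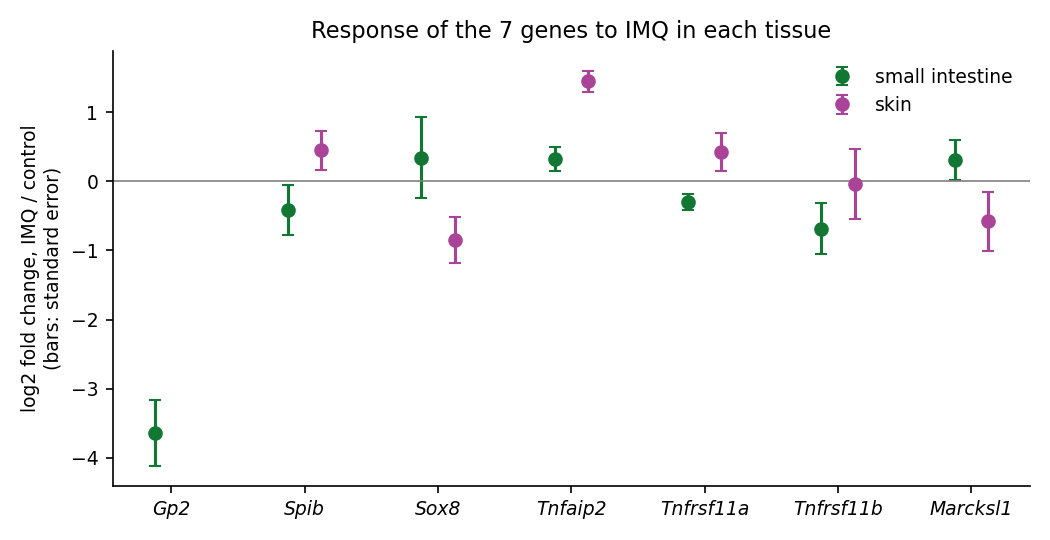
Log2 fold change of IMQ against control (vertical axis) with its SE for each gene in small intestine and skin. *Gp2* is at -3.64 in small intestine and has no value in skin, and *Tnfaip2* is at 0.32 in small intestine and 1.45 in skin.

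Other genes reported from M cells and the follicle-associated epithelium were compared next. Of a list of 19, all tested in the small intestine, 4 rose and 0 fell at an adjusted p under 0.05, against 2.95% of all genes (2.77% higher). At an unadjusted p under 0.05 there were 6 by edgeR, against 12.3% of all genes. The list's median log2 fold change was -0.265. The genes that rose were *Aif1* at 2.25 (adjusted p = 9.47e-04), *Ctsh* at 1.94 (adjusted p = 4.17e-04), *Anxa5* at 1.02 (adjusted p = 0.00398) and *Cxcl16* at 0.68 on the log2 scale (adjusted p = 0.0449, all by edgeR). *Aif1* had 486, 328 and 405 normalized counts in control and 2025 and 1823 in IMQ libraries, and *Ctsh* 1716, 1441 and 1484 against 6180 and 5649. The IMQ libraries were several times above the control libraries for both. *Aif1* encodes the macrophage protein Iba1, *Ctsh* the lysosomal protease cathepsin H, *Anxa5* annexin A5 and *Cxcl16* a chemokine made by myeloid cells. The call of *Cxcl16* was lost without each of the 5 libraries (adjusted p 0.0632 to 0.316, edgeR).

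Some macrophage genes rose in the same libraries. Of 14 macrophage, monocyte and neutrophil genes, 13 were tested and 5 rose (*Adgre1*, *Cd68*, *Itgam*, *C1qa* and *Fcgr1*), against 2.77% of all genes. The call of *Fcgr1* was kept without 1 of 5 libraries in turn, and those of the others without each. The list had a median log2 fold change of 1.25. The monocyte gene *Ly6c2* (-0.52, adjusted p = 0.650) and the neutrophil receptor gene *Cxcr2* (-0.25, adjusted p = 0.893, edgeR) did not pass. The summed level of the list was 317, 234 and 262 FPKM in control and 520 and 497 FPKM in IMQ small intestine, and 0 or 1 of the 14 was at 0 in a library. Their part in the rise of *Aif1*, *Ctsh*, *Anxa5* and *Cxcl16* was not tested.

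The dome chemokine genes *Ccl20* and *Ccl9* did not pass, unlike *Cxcl16* of the same list, whose call is given above. *Ccl20*, the chemokine that draws CCR6-bearing cells to follicles, had a log2 fold change of -0.10 (adjusted p = 0.960) and *Ccl9*, another dome chemokine, of -0.0015 (adjusted p = 0.999). *Esrrg*, a nuclear receptor upstream of *Sox8*, had 578, 357 and 395 normalized counts in control and 339 and 329 in IMQ libraries, with a log2 fold change of -0.41 (SE 0.251, adjusted p = 0.619, edgeR). Both IMQ libraries were below the control libraries, although replicate 10 was close to replicate 8. *Ubd*, an ubiquitin-like gene of the follicle-associated epithelium also induced by inflammation, was dominated by control replicate 9 with 5139 normalized counts, against 155 and 532 in the other control and 573 and 345 in the IMQ libraries.

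In the skin, 2 of the 19 genes rose and 0 fell, against 4.05% and 2.69% of all genes. The list's median was 0.523, against -0.0143 over all genes. *Aif1* rose by 2.36 on the log2 scale (adjusted p = 0.00558), also without each library in turn, and *Serpinb1a*, which inhibits neutrophil proteases, by 1.41 (adjusted p = 0.0207, edgeR), a call kept without 2 of 6 libraries in turn (adjusted p 0.00992 to 0.0843). Of the 14 myeloid genes, 9 rose, against 4.05% of all genes. The 14 summed to 472 to 623 FPKM in control and 8251 to 9497 FPKM in IMQ skin. Most of this sum was *S100a8* and *S100a9*, alarmins of neutrophils and keratinocytes, and without them it was 461 to 614 FPKM in control and 949 to 1246 FPKM in IMQ skin. Their part in these rises was not tested. *Ccl20* had 160, 370 and 123 normalized counts in control and 481, 436 and 453 in IMQ skin. All IMQ libraries were above all control libraries, but the log2 fold change of 1.07 (SE 0.405) did not pass (adjusted p = 0.175, edgeR). Without control replicate 2 it was 1.69 (adjusted p = 0.00773).

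Genes of RANKL and NF-κB signaling did not pass the test in the small intestine. Of 22 genes tested, 0 were called by edgeR, 5 had an unadjusted p under 0.05, against 12.3% of all genes, and 1, the osteoclast transcription factor gene *Nfatc1*, was called by DESeq2. The median log2 fold change was 0.105. *Traf6*, the adaptor of RANK, had a log2 fold change of -0.06 (adjusted p = 0.911), *Map3k14*, which encodes the NF-κB-inducing kinase, of 0.52 (SE 0.183, adjusted p = 0.273), and the NF-κB subunit genes *Nfkb2* and *Relb* of 0.28 and 0.14 (adjusted p = 0.612 and 0.847, edgeR). *Nfatc1* had 0.62 (SE 0.153, adjusted p = 0.103 by edgeR and 0.0126 by DESeq2).

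In the skin, 2 of the 22 genes rose and 1 fell, against 4.05% and 2.69% of all genes, with a median of 0.16. *Birc3*, an inhibitor of apoptosis that binds TRAF proteins, rose by 1.08 on the log2 scale (adjusted p = 0.0237), and *Nfkb1* rose by 0.63 (adjusted p = 0.0234). *Lgr4*, a receptor of R-spondins that can also bind RANKL, fell by 1.27 (adjusted p = 0.0312, all by edgeR). Each of these calls was lost when single libraries were left out, with an adjusted p of up to 0.104 for *Birc3*, 0.113 for *Nfkb1* and 0.132 for *Lgr4*. *Tnfsf11* had 26, 18 and 26 counts in control and 26, 87 and 55 in IMQ skin. Its log2 fold change of 1.42 (SE 0.429) did not pass by edgeR (adjusted p = 0.105) and did by DESeq2 (adjusted p = 0.0274). *Relb*, *Nfkb2*, *Map3k14* and *Traf6* had log2 fold changes of 0.15, 0.48, 0.58 and 0.17 in skin, with adjusted p values of 0.723, 0.135, 0.156 and 0.762 by edgeR.

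**Figure D5:**
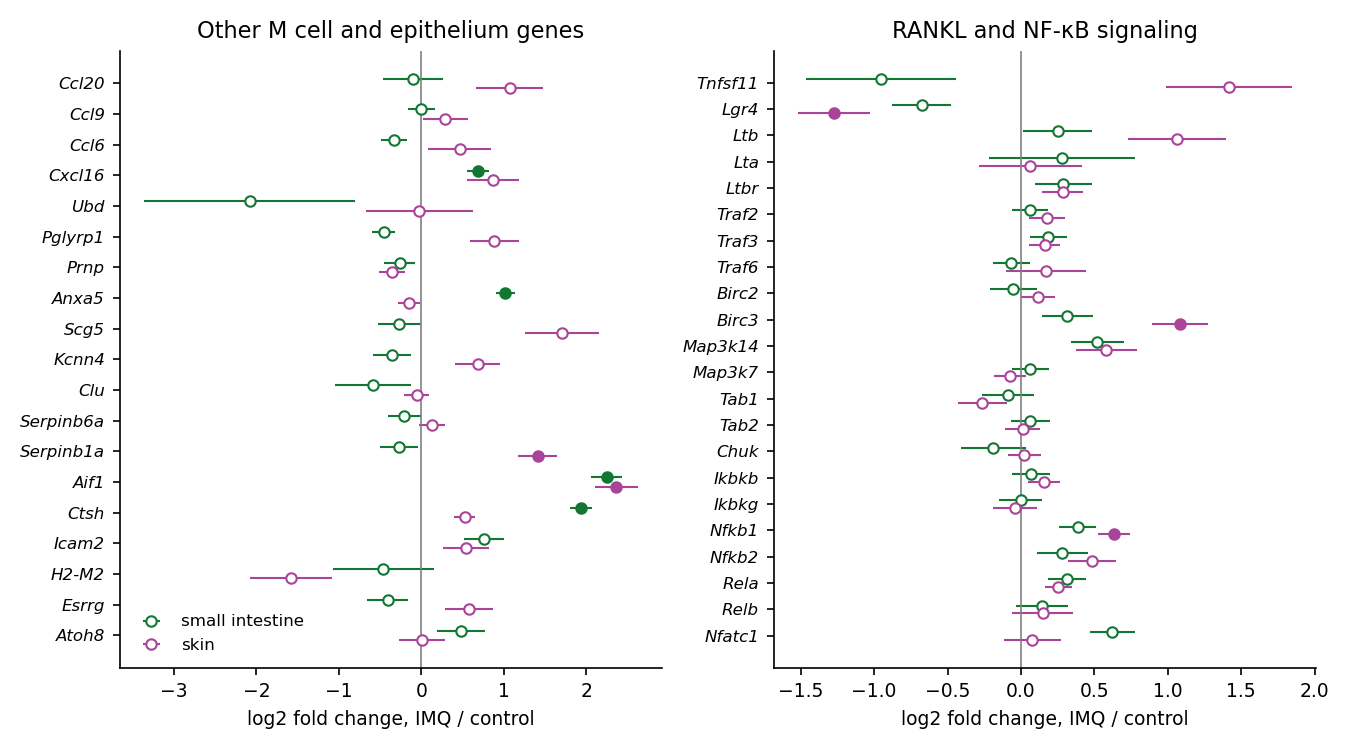
Log2 fold change of IMQ against control (horizontal axes) with its SE for the other M cell and epithelium genes (left) and the RANKL and NF-κB genes (right) in small intestine (green) and skin (purple), with filled points for an adjusted p under 0.05. *Aif1* and *Ctsh* stand at 2.25 and 1.94 in small intestine, and *Tnfsf11* lies at -0.95 in small intestine and 1.42 in skin.

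The B cell follicle beneath the M cells was measured by 19 genes, of which 17 were tested in the small intestine. Of these, 1 rose, *Madcam1*, the addressin of gut venules, by 1.30 on the log2 scale (adjusted p = 0.0465, edgeR), and the call was kept only without control replicate 7 of the 5 libraries left out in turn (adjusted p up to 0.221). Over all genes tested, 2.77% were called higher. At an unadjusted p under 0.05 there were 5 by edgeR, against 12.3% of all genes. Of the 19, both IMQ libraries were above all control libraries for 3 and below them for 2. Over all genes tested these shares were 15.1% above and 13.9% below. DESeq2 called further genes of the list both ways. Among them were *Cd79b*, higher (adjusted p = 0.00139, edgeR 0.0765), and *Cd22*, lower (adjusted p = 0.00062, edgeR 0.082). The median log2 fold change of the list was -0.917. The spread was wide, since *Ms4a1* had 17, 48 and 389 counts in control and 58 and 15 in IMQ libraries, and *Cr2* had 13, 43 and 308 against 50 and 11. For *Ms4a1*, IMQ replicate 10 lay within the control range and replicate 11 just below it (log2 fold change -2.02, adjusted p = 0.601). *Cr2* was lowest in IMQ replicate 11 (log2 fold change -1.97, adjusted p = 0.617), and *Cxcl13*, the chemokine that draws B cells to follicles, had a log2 fold change of 0.62 (adjusted p = 0.809, edgeR). The summed level of the list was 19.9 to 39.9 FPKM in control and 33.7 and 30.1 FPKM in IMQ libraries, and 0 to 2 of its genes were at 0 in a library.

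*Il22ra2* was lower in both IMQ libraries, and its call depended on the test. It encodes the soluble IL-22 binding protein made by dendritic cells of Peyer's patches, and it had 124, 129 and 143 counts in control and 51 and 15 in IMQ libraries. The control libraries were close together, replicate 9 included (0.998 of the mean of 7 and 8), and both IMQ libraries were below them. The log2 fold change was -2.05 (SE 0.441), with an adjusted p of 0.0652 by edgeR, 0.000102 by DESeq2 and 0.0331 by edgeR without IMQ replicate 10. *Siglech*, a receptor of plasmacytoid dendritic cells, had 308, 410 and 299 normalized counts in control and 196 and 61.0 in IMQ libraries (log2 fold change -1.39, SE 0.468, adjusted p = 0.253 by edgeR and 0.0335 by DESeq2, and 0.0401 by edgeR without IMQ replicate 10). Of 9 genes of plasmacytoid dendritic cells, 0 were called in the small intestine by edgeR. At an unadjusted p under 0.05 there were 4, against 12.3% of all genes tested. The list's genes went both ways, with both IMQ libraries above all control libraries for 3 and below them for 3. Over all genes tested these shares were 15.1% and 13.9%. The list had a median log2 fold change of -0.0894. In skin, *Il22ra2* had a log2 fold change of -0.25 (adjusted p = 0.757), *Siglech* of -0.56 (adjusted p = 0.265), *Esrrg* of 0.58 (adjusted p = 0.288) and *Ccl9* of 0.29 (adjusted p = 0.571, edgeR).

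Some genes of the B cell follicle list rose in the skin and others did not. Of 19 genes, 10 had a count in every skin library and were tested. Of these, 4 rose and 0 fell, against 4.05% and 2.69% of all genes, with a median of 1.04. Over all 19, the IMQ libraries were all higher for 7 and all lower for 4, against 15.1% and 13.3% of all genes tested. Other filters or DESeq2 also called genes of the list lower. *Ms4a1* and *Pax5* stayed low, with mean normalized counts of 2.72 and 0.581 in control and 5.51 and 4.53 in IMQ skin. *Cxcl13* rose by 5.78 on the log2 scale (adjusted p = 0.00432), the B cell kinase gene *Blk* by 5.10 (adjusted p = 0.0042), *Cd79b* of the B cell receptor by 3.42 (adjusted p = 0.00849) and *Cd22* by 2.85 (adjusted p = 0.00889, all by edgeR), and all 4 were kept without each library in turn. *Spib*, a B cell gene as well, did not pass in the same libraries.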

How the data were processed

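RNA of skin and small intestine was sequenced in 11 libraries, grouped by tissue and cream as in their labels. The authors trimmed the reads, aligned them to mm10 with HISAT2 2.1.0, quantified genes with StringTie 2.1.3b and deposited whole-number read counts without normalization, 44995414 to 58526384 per library. The deposited table also holds FPKM, which the authors scaled by transcript length and library size, and TPM by the authors, which was not used. The counting tool, strand setting and treatment of multiply mapped reads were not given in the sources used here, so values of paralogs and of overlapping genes are uncertain. The submitters' processing notes also name Trimmomatic and bcl2fastq 2.20.0.

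Genes counted at least once (minimum 1) in each library of a tissue were normalized by relative log expression and compared with edgeR's quasi-likelihood test (edgeR 4.0.16, R 4.3.3), with p values adjusted after Benjamini and Hochberg across all tested genes and calls at an adjusted p under 0.05. The biological coefficient of variation was 0.215 in small intestine and 0.245 in skin. The difference between tissues was an interaction term in a model of all 11 libraries. For normalized counts, each count was scaled to the mean effective library size of its tissue, and SE is the log2 fold change divided by the square root of F. FPKM served levels between genes and tissues. For pairs of libraries within a group, chi-square per degree of freedom of the counts ranged from 36.9 to 251, so no pair agreed within sampling noise, which does not show that the libraries came from separate mice. The scripts were tested on simulated data.

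The 7 genes and all lists were chosen with earlier results of these data known. The genes named are these 7 and 13 genes of the pathway, follicle and dendritic cells named whatever their values. From the lists of other M cell, RANKL and NF-κB, and B cell follicle genes came the 3 called genes with the largest rise and the 3 with the largest fall in a tissue. List genes called for the interaction term are named as well. So are the 2 genes nearest to each of the 7 whose mean normalized count reached 50 in small intestine, by root mean square distance of centred log2 CPM (prior count 2). *Ubd*, *Nfatc1*, *Cxcl16*, *Cd22*, *Fabp1*, *S100a8*, *S100a9*, the macrophage genes of small intestine and the genes used to describe single libraries were named after their values were seen. Further lists were the epithelial, proximal, distal, myeloid, plasmacytoid dendritic, stromal, keratinocyte, hair follicle, Langerhans cell and pancreatic acinar genes. Not every called gene of these further lists is named. Alternatives were TMM, DESeq2 1.42.0, limma 3.58.1 on log2(FPKM + 0.01), no filter on low counts, filtering by filterByExpr, and each library left out in turn. A gene of the B cell follicle list is counted with the list and not reported here by name.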

Additional observations from a re-analysis of the deposited data

Results flagged for a closer look

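Of the 7 genes, 3 had all IMQ libraries on opposite sides of the control mean in the tissues. The log2 fold change in small intestine minus that in skin was -0.853 for *Spib*, -0.708 for *Tnfrsf11a* and 0.881 for *Marcksl1*, and the difference was not tested. For *Spib* this rests on control replicate 9 of small intestine, since the IMQ libraries lie between replicates 7 and 8, and without replicate 9 the difference was -0.441. Without control replicate 2 of skin it was -1.01 for *Tnfrsf11a* and 1.23 for *Marcksl1*, and without control replicate 9 of small intestine it was 1.23 for *Marcksl1* as well.

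Of the other M cell genes, 3 and of the B cell follicle genes another 3 differed between the tissues by the interaction term of edgeR's quasi-likelihood test, in which 2.55% of 18108 genes were called. *Anxa5* (1.17, adjusted p = 0.00767) and *Ctsh* (1.42, adjusted p = 0.00371) had the higher response in small intestine, and their calls were kept without each of the 11 libraries in turn. *Cd22* (-4.25, adjusted p = 0.00306) had the lower response in small intestine and was also kept without each of the 11. *Blk* (-4.88, adjusted p = 0.0153) was lost without IMQ replicate 10 or 11 of small intestine (adjusted p = 0.0883 and 0.0908). *Cxcl13* (-5.16, adjusted p = 0.0214) was lost without control replicate 1 of skin (adjusted p = 0.0517) and without IMQ replicate 10 or 11 of small intestine (adjusted p = 0.132 and 0.0772). *Serpinb1a* (-1.67, adjusted p = 0.0397) was kept without 2 of 11 libraries in turn, with an adjusted p of 0.00983 to 0.17. Of the cell type markers in the remaining lists, *Cd68* (1.97, adjusted p = 0.00667) and *S100a9* (-7.22, adjusted p = 0.000913) differed as well and were kept without each of the 11 libraries in turn. *Itgax* (2.75, adjusted p = 0.00995) and *Slc40a1* (1.31, adjusted p = 0.0153) were lost without IMQ replicate 10 of small intestine (adjusted p = 0.0523 and 0.0887).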

How the results depend on the processing

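The *Gp2* log2 fold change in small intestine was -3.71 to -3.64 over the other models and filters and -4.52 to -3.15 without single libraries. *Tnfaip2* in skin was 1.38 to 1.45 and 1.33 to 1.53, with an adjusted p under 0.05 in each of these fits. Counts of calls over all genes moved more. In small intestine there were 588 calls, 1206 with DESeq2 and 294 to 801 without single libraries (378 without control replicate 9, 294 without IMQ replicate 10 and 334 without IMQ replicate 11). In skin there were 1382, 3030 with DESeq2 and 258 to 2521 without single libraries, the highest without control replicate 2 and the lowest without IMQ replicate 5. The interaction gave 462 calls, 1281 with DESeq2, 301 without a filter on low counts and 144 to 1072 without single libraries, the lowest without IMQ replicate 10 of small intestine and the highest without control replicate 2 of skin. Of the RANKL and NF-κB genes, 0 were called in small intestine, 1 with DESeq2 and 0 to 2 without single libraries (*Nfatc1* and *Lgr4* without control replicate 7), and 3 in skin, 5 with DESeq2 and 0 to 4 without single libraries. Of the other M cell genes, 4 were called in small intestine and 3 without any single library, and 2 in skin, 6 with DESeq2 and 1 to 5 without single libraries. The causes were not tested. No paired analysis was possible because the replicate numbers 1 to 11 are not shared between groups.

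With 2 IMQ libraries of small intestine, a fit without either leaves 1, which is then assumed to vary like the control libraries. *Sox8* and *Tnfsf11* had few counts, which limits their precision.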
